A study of Mus musculus with 12 samples.

Results

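Early mouse blastocysts labelled number 1 were compared with early blastocysts labelled number 2, gene by gene, over the 10371 genes of 43472 in the table whose mean over the 4 early blastocyst libraries was at least 1 in the deposited unit (3.582 CPM, counts scaled to a common total of reads per library). Of the study's 12 libraries, 4 entered this comparison. Number 1 was 1 library of embryos injected with a negative control siRNA and 1 library of embryos injected with an siRNA against Tdgf1, and number 2 was another such pair. All embryos were of the CD1 stock, an outbred mouse stock, and in all groups the siRNA had been injected into the zygote together with GFP mRNA, a marker of injection. Morulae and late blastocysts were profiled in the same layout (4 libraries a stage, numbers 1 and 2, control and Tdgf1 siRNA) and gave an independent measure of how each gene changes across these stages. The question was which genes differed between the numbers at the early blastocyst, and whether they differed in the direction in which they change from morula to late blastocyst.

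A morula is a solid ball of cells. Its outer cells become trophectoderm, an epithelium that pumps fluid inwards and so forms the cavity of the blastocyst, and its inner cells become the inner cell mass, which later parts into epiblast (the source of the embryo proper) and primitive endoderm (a source of the yolk sac). Trophectoderm is set up by transcription factors such as CDX2, GATA3 and EOMES under control of the Hippo pathway, and it is recognised by the simple-epithelium keratins KRT8 and KRT18.

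The labels do not say what the numbers stand for, nor how many embryos a library holds, nor whether the control and Tdgf1 siRNA libraries of a number came from the same collection. The 2 libraries of a number differ in siRNA, so the limma p-values below rest on the spread between a control and a Tdgf1 siRNA library. That spread was pooled over morula, early blastocyst and late blastocyst and moderated across genes. It is neither the spread between like libraries nor that between independent collections. The early blastocyst libraries held 12095944 and 12188026 reads for number 1 and 13770264 and 13064715 reads for number 2, and all 12 held 10524640 to 13770264. At these depths a gene with 0 reads may still have held up to 3 reads' worth, 0.218 to 0.285 CPM, and this covers counting error only, because PCR copies were not told apart by molecular identifiers. Tdgf1, the gene targeted by the siRNA and the co-receptor Cripto, stood at 21.7 CPM (control) and 9.27 CPM (Tdgf1 siRNA) in number 1 and at 13.1 and 15.2 CPM in number 2, so the number 2 library labelled Tdgf1 siRNA was not below its control. It was below the same-numbered control in the morula and late blastocyst pairs: 29.4 against 15.5 and 23.4 against 11 CPM at morula (control first), and 97.3 against 49.5 and 84.6 against 70.8 CPM at late blastocyst.

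Of the 10371 genes, 1354 (13.1%) differed between the early blastocyst numbers at an adjusted p under 0.05 (limma, Benjamini-Hochberg), 964 (9.3%) being higher in number 1 and 390 (3.76%) higher in number 2. Differences are on the scale log2(deposited value + 1), number 1 minus number 2, and this scale understates the change of low genes. The median over all genes was 0.12 on that scale, and it was 0 after TMM scaling (trimmed mean of M values). With TMM scaling 1194 genes (11.5%) passed, 460 higher (4.44%) and 734 lower (7.08%), so the balance of directions depended on the scaling. All 460 and 390 of the 734 had also passed in the same direction without it. Leaving out 1 early blastocyst library left 331 calls (without the number 2 control), 481 (without the number 1 Tdgf1 siRNA), 485 (without the number 2 Tdgf1 siRNA) or 1003 (without the number 1 control). Of the 108 called genes named below, 40 kept the call without any 1 of these 4 libraries, and 68 lost it without at least 1. For 90 of the 1354 called genes (6.65%) the lower number averaged under the filter, so that they entered only through the number in which they were high. Among the genes named these are Rps3a3, Gm13147, Gata2, Cfc1, H2-Q7 and Plk2, and their calls are given as a description.

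The called genes mostly differed in the direction of the stage change. From morula to late blastocyst, fitted on the 8 morula and late blastocyst libraries only, 6686 genes (64.5%) changed, 3965 (38.2%) rising and 2721 (26.2%) falling. Of the 964 genes higher in number 1, 654 (67.8%) also rose from morula to late blastocyst, 70 (7.26%) fell and 240 (24.9%) had no stage call. Of the 390 genes higher in number 2, 285 (73.1%) fell from morula to late blastocyst, 28 (7.18%) rose and 77 (19.7%) had no stage call. By sign alone, 1121 of the 1354 (82.8%) pointed the same way as the stage change, beside 64.6% of all 10371 genes. With TMM scaling 341 of 460 (74.1%) and 565 of 734 (77%) had a stage call in the same direction. These counts compare directions only. They do not measure which number stood nearer the late blastocyst, because a gene that follows can also pass beyond the late blastocyst level. In libraries of whole embryos, fewer cells of a type and less RNA per cell cannot be told apart.

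Placed between the stages, the number 1 embryos lay further along. For each early blastocyst library the median was taken over 2269 genes with a stage call and a log2 stage change of at least 1 in size, with 0 for the morula mean and 1 for the late blastocyst mean. The number 1 libraries lay at 0.565 (control) and 0.51 (Tdgf1 siRNA) and the number 2 libraries at 0.307 and 0.346. Both number 1 libraries were above both number 2 libraries. The means were 0.538 ± 0.0383 and 0.327 ± 0.0273 (SD, n = 2 each), a difference of 0.211, with an exact two-sided permutation p of 0.333, the smallest that 6 assignments of 4 libraries allow. Over the 1511 genes that rise the means were 0.543 ± 0.0366 and 0.304 ± 0.0278, and over the 758 that fall 0.522 ± 0.0373 and 0.379 ± 0.0188 (SD, n = 2 each). The difference was larger over rising genes (0.239) than over falling genes (0.143), a contrast that was not tested.

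**Figure D1:**
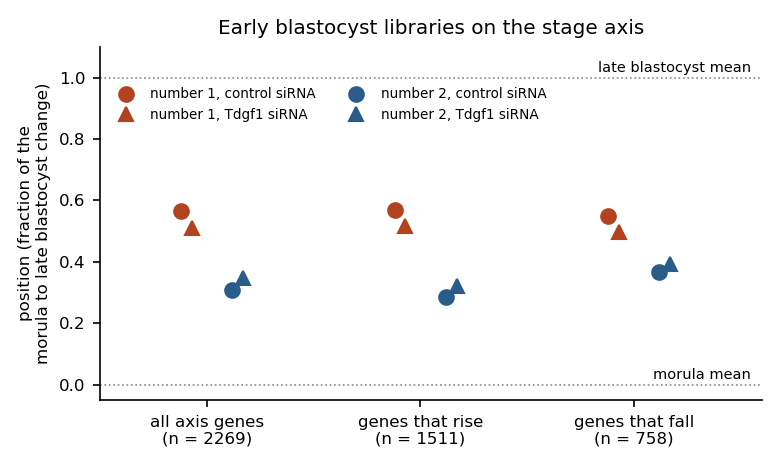
Position of each early blastocyst library between the morula mean (0) and the late blastocyst mean (1), as the median over all 2269 axis genes, the 1511 that rise and the 758 that fall. Circles are control and triangles Tdgf1 siRNA libraries, and in each set both number 1 libraries (red) lie above both number 2 libraries (blue).

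The number difference grew with the size of the stage change. The 41 genes that fell by more than 3 on the log2 scale from morula to late blastocyst had a median number difference of -0.81, with 27 of them lower and 0 higher in number 1. Genes falling by 2 to 3 had a median of -0.46 and genes falling by 1 to 2 a median of -0.2. The 5144 genes with a stage change between -0.5 and 0.5 had a median of 0.11, which is near the median of all genes. Above that the medians were 0.21 (0.5 to 1), 0.32 (1 to 2), 0.53 (2 to 3) and 0.8 for the 95 genes that rose by more than 3, of which 55 (57.9%) were higher and 0 lower in number 1. Taken apart, the control pair had medians of -0.88 and 1.01 in the lowest and highest range, and the Tdgf1 siRNA pair -0.76 and 0.58. The morula number difference had medians of 0.12 and 0.05 in those same ranges. Across genes, which are not independent replicates, the number difference followed the stage change with Pearson's r of 0.471 and Spearman's rho of 0.415 and a slope of 0.189, and r was 0.536 for the control pair and 0.309 for the Tdgf1 siRNA pair.

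**Figure D2:**
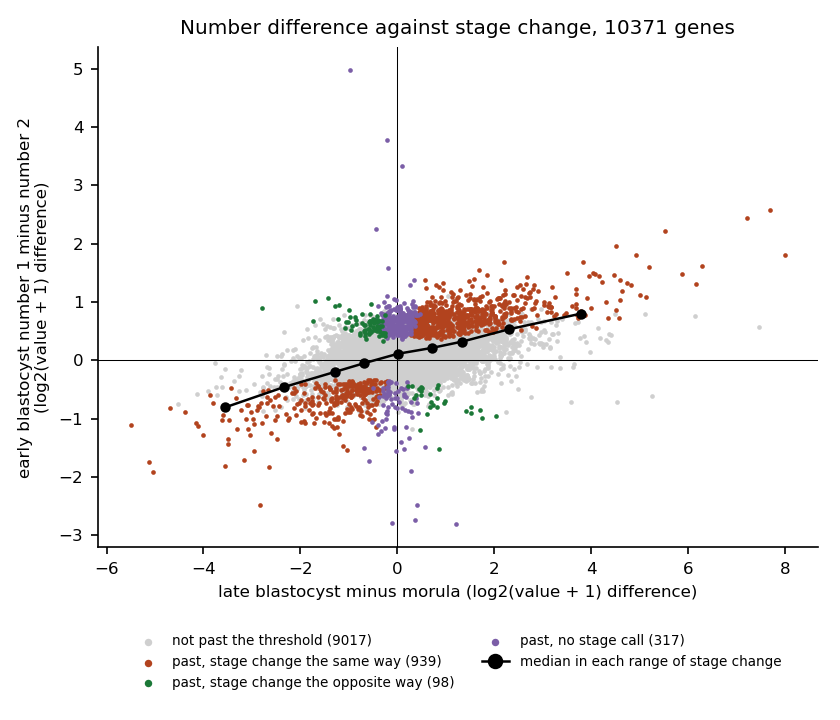
Each point is 1 of 10371 genes, with the late blastocyst minus morula difference on the x axis and the early blastocyst number 1 minus number 2 difference on the y axis, both on the log2(value + 1) scale. Black points are medians within ranges of the stage change and climb from -0.81 to 0.8; the genes of largest difference at the top, Rps3a3 and Rps3a2, have no stage call.

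With the filter on low values fewer genes differed by number at the other stages, whereas without it the late blastocyst had more calls (202) than the early blastocyst (175) or the morula (74). At morula 344 genes (3.32%) differed between number 1 and number 2, 142 higher (1.37%) and 202 lower (1.95%), and at late blastocyst 35 (0.337%), 10 higher (0.0964%) and 25 lower (0.241%). Of the early blastocyst calls, 74 were also called between the morula numbers (5.47% of the early blastocyst calls and 21.5% of the morula calls), and 49 of these had the same sign. For late blastocyst the overlap was 7 genes (0.517% and 20%), 5 with the same sign. The test of the difference itself, the early blastocyst number difference minus the mean of those at morula and late blastocyst, called 567 genes (5.47%), 374 (3.61%) upwards and 193 (1.86%) downwards. This count was 136 without the number 2 early blastocyst control, and limma called 0 without the filter on low values (3346 at an unadjusted p under 0.05). Among the 1354 early blastocyst calls 475 (35.1%) passed it, all 475 with the sign of the early blastocyst difference. That contrast contains the same early blastocyst difference by which the 1354 were picked. The share and the agreement in sign are therefore largely built in and are not separate support.

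Several regulators of trophectoderm were higher in number 1. Of 18 listed regulators 15 passed the filter on low values, and of these 6 were higher and 1 lower in number 1, each in the direction of its stage change. The called share was 46.7%, beside 13.1% of all genes tested, and it includes Gata2, which entered only through number 1. The median difference was 0.56, beside 0.12 over all genes tested, and 14 of the 15 differences were positive, passed or not. Cdx2, the homeobox factor that specifies trophectoderm (chr5:147300805-147307270, mm10), stood at 139 (control) and 184 CPM (Tdgf1 siRNA) in number 1 and at 57.3 and 79.4 CPM in number 2 (values below are in this order). Both number 1 values exceeded both number 2 values, and one of them also the highest late blastocyst value of 143 CPM. The difference was 1.2 ± 0.20 (SE, adjusted p = 0.00155), and Cdx2 averaged 57.1 ± 12.7 CPM at morula and 113 ± 21.6 CPM at late blastocyst (SD, n = 4 each).

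Gata2, a zinc-finger factor of trophoblast (chr6:88193891-88207032), stood at 14.1 and 12.6 CPM in number 1 and 2.54 and 2.6 CPM in number 2, a difference of 1.46 ± 0.22 (adjusted p = 0.001), with number 2 under the filter. It was nearly silent at morula (0.329 ± 0.471 CPM) and reached 84.7 ± 17.4 CPM at late blastocyst, so both early numbers lay between the stages and number 1 further up. Eomes, needed for trophoblast development, stood at 39.9 and 38.8 CPM against 9.08 and 19.0 CPM (difference 1.35 ± 0.28, adjusted p = 0.00596). Id2, an inhibitor of basic helix-loop-helix factors that marks outer cells early, stood at 423 and 411 CPM against 128 and 196 CPM (difference 1.38 ± 0.19, adjusted p = 0.000473). Neither gene's numbers overlapped. Id2 differed between the morula numbers too, by 1.32 (adjusted p = 0.000856).

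Gata3 and Tfap2a, chosen here because they passed the test, were also higher in number 1, by 0.64 and 0.93. Hand1, a factor of later trophoblast giant cells that fell from 73.3 ± 9.61 CPM at morula to 0.748 ± 0.815 CPM at late blastocyst, was lower in number 1 by 1.08 on the log2 scale (adjusted p = 0.00501), at 10.3 and 14.6 CPM against 25.5 and 35.2 CPM. The remaining 8 tested regulators, among them Tead4, Tfap2c and Elf3, did not pass the test, and Elf5, Esx1 and Dlx3 were under the filter. Cdx2, Gata2 and Id2 kept the call without any 1 of the 4 early blastocyst libraries, which for Gata2, with number 2 under the filter, is a description only. Without the number 2 control the adjusted p rose to 0.102 for Eomes, 0.1 for Gata3 and 0.0565 for Tfap2a, and without the number 2 Tdgf1 siRNA library to 0.0704 for Hand1.

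Epithelial genes that passed were all higher in number 1. Of 27 listed genes of epithelium, junctions and cavity 24 were tested, 8 were higher and 0 lower in number 1, and all 8 rose from morula to late blastocyst. These 8 were 33.3% of those tested, beside 13.1% of all genes. With TMM scaling 6 were higher and 2 lower. Krt18 (chr15:102028180-102032027) stood at 1477 and 1262 CPM in number 1 and 606 and 584 CPM in number 2, and its partner keratin Krt8 at 1665 and 1536 against 715 and 792 CPM. The differences were 1.19 ± 0.19 (adjusted p = 0.0013) and 1.08 ± 0.17 (adjusted p = 0.00123). Krt18 was also higher in number 1 at morula, by 0.73 (adjusted p = 0.0442), and so was Dsp, by 0.96 (adjusted p = 0.00187). For both keratins number 2 lay above all 4 morula libraries and below number 1. Number 1 stayed below the lowest late blastocyst library, 2718 CPM for Krt18 and 1757 CPM for Krt8. Slc9a3r1, a scaffold under the apical membrane, differed by 1.07 (adjusted p = 0.00335), and Atp1b1, the beta subunit of the sodium pump that drives cavity filling, by 0.88 (adjusted p = 0.0212). Also higher were Jup (0.63) and Dsp (0.57) of desmosomes, and Cdh1 (0.55), the adhesion molecule E-cadherin. Krt8 and Krt18 kept the call without any 1 library. For the other 5 genes given here the adjusted p rose to between 0.0701 (Slc9a3r1) and 0.266 (Jup), in each case except Atp1b1 without the number 2 control.

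Among 32 listed genes of later trophoblast, chosen for high levels in blastocyst epithelium, 25 were tested, 23 rose from morula to late blastocyst, and 3 (12%) were higher and 0 lower in number 1, a share near the 9.3% of all genes. With TMM scaling 3 were higher and 1 lower. Tmsb4x, an actin-monomer binding peptide on the X chromosome, stood at 51.3 and 30.7 CPM in number 1 and at 4.65 and 4.21 CPM in number 2. The number 2 values lay within the morula range of 3.64 to 10.9 CPM and the number 1 values above it, while late blastocysts held 1318 to 1488 CPM. The difference was 2.44 ± 0.24 (adjusted p = 3.44e-05). Ndrg1, a gene induced on differentiation and by low oxygen, showed 72.7 and 36.5 CPM against 7.63 and 8.96 CPM (difference 2.22 ± 0.33, adjusted p = 0.000746). Tpm1, a tropomyosin, was the remaining one (difference 0.68). Lgals3 and Apoe did not pass, with differences of 0.71 (adjusted p = 0.0902) and -0.71 (adjusted p = 0.0689), although both rose with stage. With TMM scaling Apoe was called lower (adjusted p = 0.0348), against its rise. Tmsb4x and Ndrg1 kept the call without any 1 library, and Tpm1 reached an adjusted p of 0.0539 without the number 2 control.

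The gene with a stage call that differed most upwards was BC053393 (chr11:46571536-46589232), at 211 and 116 CPM in number 1 and 19.8 and 27.2 CPM in number 2. It stood at 2.80 to 4.76 CPM at morula and 1007 to 1827 CPM at late blastocyst, so the 4 early blastocyst libraries lay between the stages with no overlap of the numbers (difference 2.57 ± 0.25, adjusted p = 3.44e-05). Other leading genes of this kind were Slc22a5, the carnitine transporter (difference 1.81), Adh1, an alcohol dehydrogenase (1.80), Pdcd4, an inhibitor of translation (1.69), Capn2, a calpain protease (1.68), and Tspan8, a tetraspanin (1.61). Capn2 also differed between the morula numbers, by 0.72 (adjusted p = 0.0401). Their adjusted p ranged up to 0.0123, for Adh1, whose number 1 libraries differed from each other (251 and 68.2 CPM, against 40.9 and 30.2 CPM in number 2) and whose adjusted p was 0.14 without the number 1 control. The other 5 genes of this paragraph kept the call without any 1 library.

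The promoters of 3 of these followers are shown, picked as examples with and without the letters of a motif bound by TFAP2 factors. The letters stand before 2 genes that rose and were absent in this stretch before 1 that fell. As picked examples these 3 do not stand for their sets, whose shares are given below. Each is the 120 bases before the more upstream of the RefSeq and GENCODE transcription starts, with a match to GCCNNNGGC in capitals. Coordinates are GRCm38.p6, and all 3 genes are on the plus strand. The matches begin 83 bases (BC053393, chr11:46571393-46571512) and 47 bases (Krt18, chr15:102028060-102028179) before the start. The stretch before Sox15 is chr11:69654917-69655036, and the GENCODE start of Sox15 lies further downstream, at 69655314.
BC053393: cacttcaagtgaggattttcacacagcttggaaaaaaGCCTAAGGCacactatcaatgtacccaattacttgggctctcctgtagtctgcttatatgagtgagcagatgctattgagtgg
Krt18: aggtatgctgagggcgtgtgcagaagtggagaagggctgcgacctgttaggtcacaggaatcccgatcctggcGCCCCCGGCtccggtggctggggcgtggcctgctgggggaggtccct
Sox15: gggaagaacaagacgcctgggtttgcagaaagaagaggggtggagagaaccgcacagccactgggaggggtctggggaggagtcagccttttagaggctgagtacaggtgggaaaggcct
The motif reads the same on both strands. Within 250 bases before the start, GCCNNNGGC was found in 128 of 496 promoters (25.8%) of genes that were higher in number 1 and rose with stage, in 39 of 195 (20%) of genes that were lower and fell, in 1588 of 7573 (21.0%) of all genes tested that had an entry, and in 13.6% of all 27025 promoters of the table. A TEAD motif (GGAATG) was found in 10.1%, 14.4% and 10.1% of those first 3 sets and a GATA motif (AGATAA) in 5.44%, 8.21% and 5.49%, both strands being searched. In the same order a KLF motif (GGGTGTGG) was found in 3.23%, 6.15% and 3.41% and an octamer motif (ATGCAAAT) in 1.21%, 0.513% and 1.21%. These motifs were chosen after the expression values had been seen, a match is not a binding site, and no test was made.

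**Figure D3:**
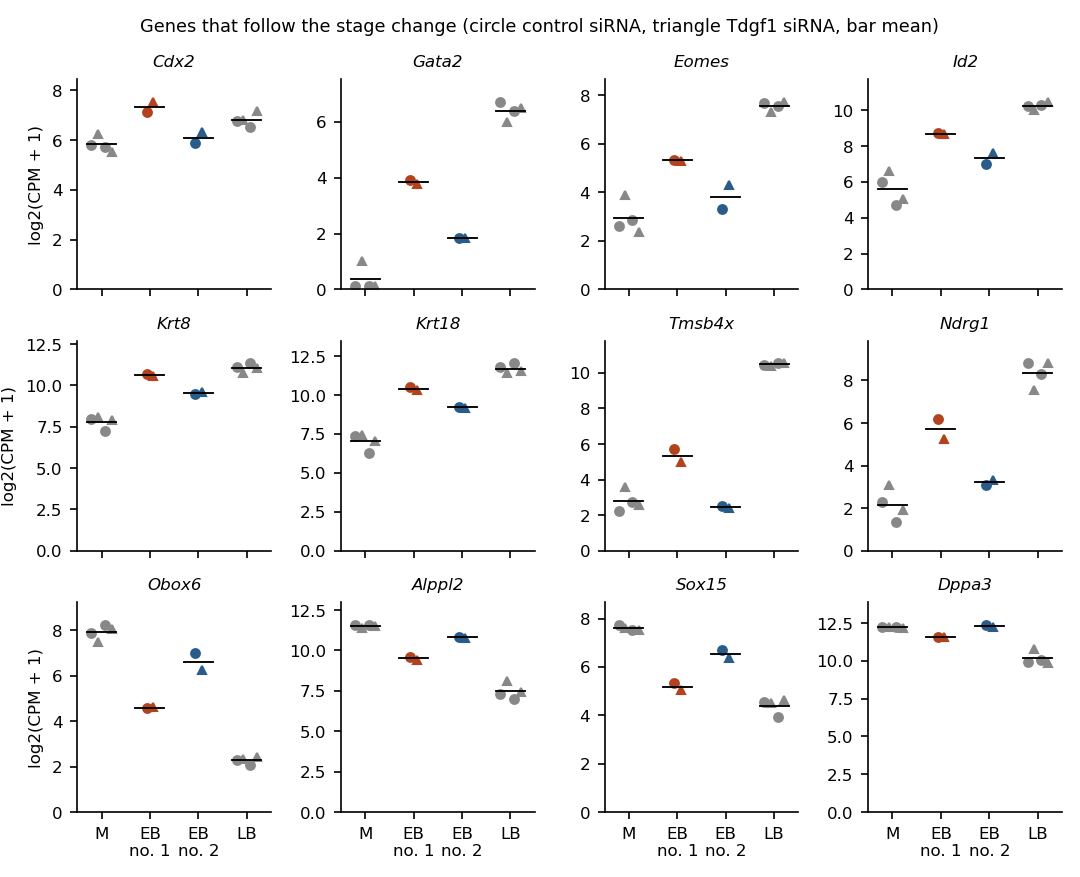
Levels, as log2(CPM + 1), of 12 genes whose number difference had the sign of their stage change, in each of the 12 libraries (M morula, EB early blastocyst, LB late blastocyst; bars are means). For Krt8, Krt18, Gata2 and Eomes number 1 lies between number 2 and the late blastocysts; for Obox6, Alppl2 and Sox15 it lies below number 2 and above the late blastocysts; Cdx2 in number 1 reaches or passes the late blastocyst level.

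Among the genes that differed most downwards, Nppb, Obox6 and Sp110 fall from morula to late blastocyst. Obox6, an oocyte-type homeobox gene (chr7:15833241-15839678), stood at 22.7 and 23.9 CPM in number 1 and at 128 and 74.6 CPM in number 2, between 180.4 to 304 CPM at morula and 3.16 to 4.32 CPM at late blastocyst. The difference was -1.92 ± 0.20 (adjusted p = 7.56e-05). Alppl2, a placental-type alkaline phosphatase named after its values were seen, stood at 773 and 693 CPM against 1850.2 and 1738 CPM (difference -1.29 ± 0.19, adjusted p = 0.000579). Both genes' early blastocyst values lay between the morula and late blastocyst ranges without overlap of the numbers. Sp110, a nuclear body protein also listed among transcripts high at the 2-cell stage, stood at 41.3 and 32.6 CPM against 115 and 165 CPM (difference -1.81, adjusted p = 3.44e-05), and it also differed between the morula numbers, by -1.03 (adjusted p = 0.00267). Nppb, which encodes a natriuretic peptide, stood at 5.13 and 4.92 CPM against 53.3 and 37.0 CPM (difference -2.48 ± 0.32, adjusted p = 0.000319), and number 1 was already within the late blastocyst range of 4.22 to 17.4 CPM. Of 22 listed 2-cell transcripts 3 were tested and Sp110 was the one that passed. Of 32 listed maternal oocyte transcripts 4 were tested, and limma called 0 of them, with 0 at an unadjusted p under 0.05. Obox6, Alppl2, Sp110 and Nppb kept the call without any 1 of the 4 libraries.

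The pluripotency list was mixed. Of 23 genes 21 were tested, and 4 were lower and 1 higher in number 1, 23.8% beside 13.1% of all genes. The median difference was 0.03 (-0.09 with TMM scaling) beside a median stage change of -0.85. Sox15 stood at 38.9 and 32.5 CPM in number 1 and 103 and 81.8 CPM in number 2 (difference -1.29 ± 0.18, adjusted p = 0.000564), and it fell from 193 ± 15 CPM at morula to 20.6 ± 4.45 CPM at late blastocyst. Dppa3, a protector of maternal methylation that fell with stage, stood at 3097 and 3020.2 against 5401 and 4902 CPM (difference -0.75, adjusted p = 0.0138), and Dppa4 was lower by 0.69. In both genes the numbers did not overlap. Sox2, a core factor of the inner cell mass, went the other way, with 16.9 and 24.8 CPM against 4.14 and 10.5 CPM (difference 1.21 ± 0.30, adjusted p = 0.0147), in the direction of its rise from 2.20 ± 0.367 to 10.9 ± 3.59 CPM. Both number 1 values exceeded the late blastocyst range of 6.17 to 14.8 CPM, which held the number 2 Tdgf1 siRNA value. Nanog and Pou5f1, named because they define the lineage, did not pass. Nanog stood at 292 and 354 CPM against 427 and 420.2 CPM (difference -0.39 ± 0.17, adjusted p = 0.12, and 0.045 with TMM scaling), and Pou5f1 at 410.1 and 454 CPM against 310.3 and 337 CPM (difference 0.41 ± 0.14, adjusted p = 0.0646), in neither number below the highest morula library (293 CPM) although it falls with stage. Sox15 and Dppa4 kept the call without any 1 library, while the adjusted p rose to 0.193 for Sox2 and 0.115 for Dppa3 without the number 2 control and to 0.08 for Gdf3 without the number 1 Tdgf1 siRNA library.

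A minority of primitive endoderm genes was higher in number 1. Of 23 genes 13 were tested and 11 rose with stage. In number 1, 3 were higher and 0 lower, 23.1% beside 13.1% of all genes. The median difference was 0.36 and the median stage change 1.48. Sparc, a matrix glycoprotein, stood at 41.3 and 32.2 CPM against 18.0 and 22.0 CPM (difference 0.77 ± 0.21, adjusted p = 0.024, 0.053 with TMM scaling). Sparc also differed between the morula numbers, by 1.03 (adjusted p = 0.0119; stage dependence of its number difference, adjusted p = 0.388). Fgfr2, a receptor for the FGF4 signal that drives this lineage, stood at 76.0 and 83.0 CPM against 42.8 and 52.0 CPM (difference 0.71, adjusted p = 0.0147), and Dab2, an endocytic adaptor, differed by 0.47. With TMM scaling 1 of the 3, Fgfr2, remained past the threshold, and without 1 library the adjusted p rose to 0.172 (Sparc) and 0.14 (Fgfr2), both without the number 2 control, and to 0.0986 (Dab2, without the number 1 Tdgf1 siRNA library). Gata6, which defines the lineage and was named for that reason, stood at 207 and 259.8 CPM against 257 and 248 CPM and did not pass (adjusted p = 0.63). Lamb1 and Col4a1, of the basement membrane, did not pass either, with differences of -0.55 and 0.49.

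In 3 signalling lists 15% to 21.4% of the tested genes passed, beside 13.1% of all genes. Of 23 Nodal and TGF-beta genes 14 were tested, with 2 higher and 1 lower. Cfc1, an EGF-CFC co-receptor of the family of Tdgf1, stood at 9.18 and 8.53 CPM in number 1 and 3.05 and 3.29 CPM in number 2 (difference 0.88, adjusted p = 0.0135). With number 2 under the filter (mean 3.17 CPM), the Cfc1 call is a description only, and the count and share of the list include it. Gdf3, a ligand of the same pathway, was lower, at 26.6 and 18.4 against 40.1 and 46.5 CPM (difference -0.86, adjusted p = 0.00594), and the signal mediator Smad4 was higher by 0.50. Tdgf1 itself did not differ past the threshold (difference 0.03 ± 0.34, adjusted p = 0.966). Of 23 FGF and ERK genes 20 were tested, with 3 higher (Fgfr2, the adaptor Frs2 at 0.65 and the exchange factor Sos1 at 0.67) and 0 lower. Sos1 fell with stage, from 115 ± 10.3 to 32.2 ± 5.64 CPM, and so went against it. Of 25 Hippo and Notch genes 20 were tested, with 4 higher and 0 lower: Amotl2, an angiomotin (0.85, adjusted p = 0.00509), Lats2, a kinase that restrains YAP (0.68, adjusted p = 0.0118), its activator Mob1a (0.55) and the YAP partner Tead1 (0.50). With TMM scaling this became 2 higher and 1 lower. Each called gene of these 3 lists lost the call without at least 1 of the 4 libraries, the highest adjusted p being 0.0722 (Amotl2) to 0.331 (Frs2).

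Enzymes at the start and end of glycolysis were higher in number 1. Of 23 genes of glycolysis and glucose uptake 19 were tested, and 4 were higher and 0 lower, 21.1% beside 13.1% of all genes. The median difference was 0.45 beside a median stage change of 1.34. Hk2, the hexokinase that starts glycolysis (chr6:82725025-82774454), stood at 122 and 128 CPM in number 1 and 48.1 and 61.2 CPM in number 2 (difference 1.15 ± 0.19, adjusted p = 0.00151). Pkm, the pyruvate kinase of its last step, stood at 394 and 379 CPM against 203 and 228 CPM (difference 0.83 ± 0.14, adjusted p = 0.0014). In Pkm all 4 early blastocyst libraries lay above the late blastocyst range of 154 to 185 CPM, number 1 highest, and neither gene's numbers overlapped. Both kept the call without any 1 of the 4 early blastocyst libraries. Tpi1 and Gpi1 were higher by 0.78 and 0.52, and both lost the call with TMM scaling (adjusted p = 0.0867 and 0.109). The glucose transporter Slc2a1 did not pass (difference 0.78, adjusted p = 0.0509).

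Respiratory chain genes stood near the median of all genes. Of 48 nuclear-encoded respiratory chain subunits, all tested, 46 rose from morula to late blastocyst, yet 2 were higher and 0 lower in number 1, and the median difference was 0.11, beside 0.12 over all genes (-0.02 and 0 with TMM scaling). The 2, 4.17% beside 13.1% of all genes, were Sdha (0.57, adjusted p = 0.021) and Sdhd (0.51, adjusted p = 0.0411) of succinate dehydrogenase. With TMM scaling 0 were higher and 1 lower. Of 29 sterol and fatty acid genes, all tested, 2 were higher and 1 lower (1 and 2 with TMM scaling), 10.3% beside 13.1% of all genes. Acly, which makes acetyl-CoA in the cytosol, stood at 120.5 and 127 CPM against 77.8 and 77.9 CPM (difference 0.64 ± 0.13, adjusted p = 0.0053), and Scd1 (0.44) and Idi1 (-0.48) were the others. All 3 were lower in number 1 at late blastocyst, by 0.76, 0.83 and 1.65 on the log2 scale (adjusted p = 0.00996, 0.008 and 2.3e-05). Me1, malic enzyme, named after its values were seen, stood at 251 and 286 CPM against 125 and 125 CPM (difference 1.08 ± 0.15, adjusted p = 0.000579), and both number 1 values exceeded the late blastocyst range of 125 to 169 CPM. Acly and Me1 kept the call without any 1 library, whereas Sdha, Sdhd, Scd1 and Idi1 lost it without at least 1, with an adjusted p of up to 0.37 (Scd1, without the number 2 control).

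Lysosomal genes differed in both directions. Of 29 genes 28 were tested, with 4 higher and 4 lower in number 1 (2 and 8 with TMM scaling). Without TMM scaling the called share was 28.6%, beside 13.1% of all genes. Gm2a, the activator of ganglioside breakdown, stood at 536 and 682 CPM against 232 and 229 CPM (difference 1.38 ± 0.15, adjusted p = 7.86e-05), and Psap, the precursor of the saposins, at 868 and 1019 against 455 and 448 CPM (difference 1.05 ± 0.20, adjusted p = 0.00404). The proton pump subunits Atp6v1a (0.47) and Atp6v1b2 (0.43) were the other 2 that were higher. The cathepsins Ctsc, Ctsz and Ctsb were lower, by 0.84, 0.74 and 0.61 on the log2 scale. Gm2a and Psap rose with stage and Ctsc and Ctsz fell, while Ctsb had no stage call. Gm2a and Psap kept the call without any 1 library, and the other 5 given here lost it, with an adjusted p of up to 0.317 (Atp6v1a, without the number 1 Tdgf1 siRNA library).

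Cell cycle genes showed no common shift. Of 28 G2/M genes, all tested, 2 were higher and 2 lower, and of 33 genes of DNA replication and G1/S 31 were tested, with 3 higher and 2 lower. These shares, 14.3% and 16.1%, were near the 13.1% of all genes, and with TMM scaling the counts became 0 higher and 2 lower, and 2 higher and 3 lower. Cdk1, the mitotic kinase, stood at 275 and 239 CPM against 443 and 373 CPM (difference -0.66, adjusted p = 0.0049), and its cyclin Ccnb1 at 598 and 546 against 848 and 806 CPM (difference -0.53, adjusted p = 0.00704). Both fall with stage, and Ccnb1 differed between the morula numbers by 0.48 (adjusted p = 0.0261). The S-phase cyclin Ccne1 was lower by 0.91 (adjusted p = 0.00202) and thymidylate synthase Tyms by 0.77 (adjusted p = 0.000739), and both fall with stage too. The cyclin D gene Ccnd3 was higher, at 331 and 367 CPM against 231 and 158 CPM (difference 0.86 ± 0.17, adjusted p = 0.00455), and E2f1 was higher by 0.81. Ccnd3 had no stage call, and in number 1 it exceeded every morula and late blastocyst library (highest 183 CPM). Cenpf and Ttk of mitosis were higher by 0.68 and 0.52, and both lost the call with TMM scaling (adjusted p = 0.0677 and 0.126). Rfc5, a clamp loader subunit, was the remaining one of the 9 (0.42). Ccne1 and Tyms kept the call without any 1 library, and the other 7 lost it without at least 1, with an adjusted p of up to 0.346 (Ttk, without the number 1 Tdgf1 siRNA library) and 0.0782 for Ccnd3 without the number 2 Tdgf1 siRNA library.

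Some chaperones of the endoplasmic reticulum were lower in number 1. Of 20 endoplasmic reticulum chaperone genes, all tested, 5 (25%) were lower and 0 higher in number 1 (7 and 0 with TMM scaling). Over all genes 13.1% were called. The median difference of the list was -0.27, although 14 of the 20 rose with stage. Creld2 stood at 104 and 68.8 CPM against 132 and 138 CPM (difference -0.65 ± 0.16, adjusted p = 0.0158), and Manf at 168 and 159.8 against 261 and 230.1 CPM (difference -0.57 ± 0.13, adjusted p = 0.0101). The other 3 were Dnajb9 (-0.63), Dnajb11 (-0.48) and Hspa5 (-0.46), the chaperone BiP. Of the 5, Dnajb9 fell with stage, Hspa5 rose with it and 3 had no stage call. Manf and Hspa5 were also lower in number 1 at morula, by 0.69 and 0.77 (adjusted p = 0.00691 for both). Each of the 5 lost the call without at least 1 early blastocyst library, the highest adjusted p being 0.118 (Manf, without the number 2 control) to 0.333 (Hspa5, likewise).

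Of 25 p53 target genes 24 were in the table and 22 were tested, with 2 lower and 0 higher, 9.09% beside 13.1% of all genes. The 2 were Plk2 (-1.50, adjusted p = 0.028) and Eda2r (-1.06, adjusted p = 0.0278), neither with a stage call. With number 1 under the filter (mean 2.71 CPM), the Plk2 call is a description only, and the count and share of the list include it. Cdkn1a, the cell cycle inhibitor p21, stood at 92.8 and 82.8 CPM against 171 and 125 CPM and did not pass (adjusted p = 0.0806, 0.04 with TMM scaling). Of 25 genes of the integrated stress response 16 were tested and 1 (6.25%), Ddit4, was lower (difference -1.12, adjusted p = 0.0131). Among 23 heat shock and immediate early genes 17 were tested, with 4 higher and 2 lower (2 and 3 with TMM scaling), 35.3% beside 13.1% of all genes. The chaperones Hsph1 (0.67), Hspe1 (0.56) and Hspd1 (0.41) and the factor Klf6 (0.89) were higher, and Gadd45b (-1.21) and the constitutive chaperone Hspa8 (-0.57) lower. Of these 6 genes 4 followed the stage change, Hsph1 went against it and Gadd45b had no stage call. Of the genes called in these 3 lists, Hsph1 alone kept the call without any 1 library, and the others reached adjusted p values of 0.0823 (Hspe1) to 0.162 (Eda2r).

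DNA methylation genes included 3 that were higher and 1 lower among 14, all tested, 28.6% beside 13.1% of all genes. Dnmt3b, a de novo methyltransferase, stood at 158 and 133 CPM against 74.6 and 82.2 CPM (difference 0.86 ± 0.14, adjusted p = 0.00142), in the direction of its rise from 80.2 ± 6.94 to 277 ± 37.4 CPM. Tdg, a glycosylase that removes oxidised methylcytosine, was higher by 0.77 (adjusted p = 0.0149). Tet2, a methylcytosine oxidase, stood at 214 and 237 CPM against 161 and 134 CPM (difference 0.60, adjusted p = 0.00871) and had no stage call, both number 1 values being above the highest morula and late blastocyst libraries (151 CPM). Dppa3, given above, was the one that was lower. Dnmt3b kept the call without any 1 library, and without the number 2 Tdgf1 siRNA library the adjusted p was 0.107 for Tdg and 0.106 for Tet2.

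Markers of cells that could accompany embryos moved with the numbers in part. Of 18 cumulus and granulosa cell genes 2 passed the filter, and the summed level of the list was 23.6 to 28.2 CPM in number 1 and 44.8 to 49.6 CPM in number 2. Nearly all of this was Serpine2, a protease inhibitor (15.9 and 7.88 against 27.7 and 23.3 CPM, difference -0.96, adjusted p = 0.0147, and 0.181 without the number 1 Tdgf1 siRNA library), and Amhr2 (difference -0.60, adjusted p = 0.0883), while Fshr, Has2 and Tnfaip6 were at 0 in all 4 early blastocyst libraries. The cumulus and granulosa list summed to 30.0 to 42.7 CPM at morula and 79.5 to 102 CPM at late blastocyst. Serpine2 alone averaged 85.5 ± 10.3 CPM at late blastocyst (SD, n = 4). The blood and reproductive tract list of 18 genes summed to 32.6 to 43.2 CPM in number 1 and 46.3 to 58.9 CPM in number 2. At morula it summed to 27.4 to 42.6 CPM and at late blastocyst to 39.8 to 58.8 CPM. Of its 2 tested genes Cd74, the invariant chain of antigen presentation, was lower in number 1, at 12.2 and 6.40 CPM against 27.8 and 39.1 CPM (difference -1.54 ± 0.33, adjusted p = 0.00753, and 0.0888 without the number 1 Tdgf1 siRNA library), and Pecam1 did not pass. Cd74 also changed from morula to late blastocyst, by -1.03 (adjusted p = 0.00491, limma), the direction of its number difference. Both number 2 values of Cd74 nevertheless lay above every morula and late blastocyst library (highest 18.5 and 8.65 CPM), and so not between the stages. The leukocyte gene Ptprc was at most 0.0827 CPM and the haemoglobin gene Hbb-bt at 0. The part of such cells in the number difference was not tested. Of 22 interferon response genes 4 were tested and of 12 X and Y linked genes 10 were tested, and limma called 0 in both lists, with 1 and 2 genes at an unadjusted p under 0.05. Xist stood at 228 and 317 CPM against 229 and 177 CPM and the Y-linked Ddx3y at 62.5 and 47.7 CPM against 39.9 and 52.6 CPM, both with overlapping numbers, with an unadjusted p of 0.0327 for Xist (adjusted p = 0.128, limma). The X-linked Kdm5c did not overlap (32.7 and 37.6 against 22.0 and 23.7 CPM, adjusted p = 0.0657), nor did Eif2s3x, Uty and Usp9y, which did not pass either. The part of the mix of sexes in the number difference was not tested. All 13 protein genes of the mitochondrial genome were listed at 0 throughout.

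**Figure D4:**
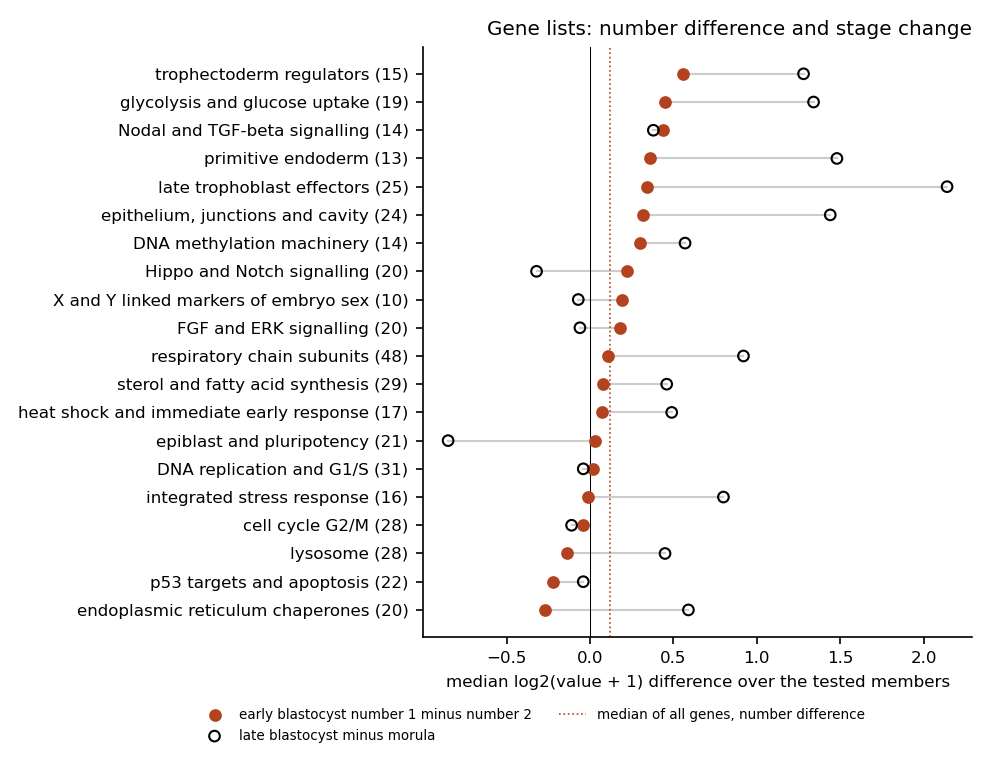
Median difference between the early blastocyst numbers (filled) and median stage change (open) over the tested members of each gene list with at least 10 of them (number in brackets), on the log2(value + 1) scale. Trophectoderm regulators stand highest at 0.56 and endoplasmic reticulum chaperones lowest at -0.27, beside 0.12 for all genes (dotted line).

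A set of 317 called genes had no stage call, and the largest differences of all were among them. Of these 317, 92 (29.0%) had both number 1 libraries above all 8 morula and late blastocyst libraries, and 117 (36.9%) had both number 2 libraries below all 8. In the opposite directions, 28 had both number 1 libraries below all 8, and 38 had both number 2 libraries above all 8. For the first 2 directions the shares over all genes tested were 8.05% and 9.3%, and over the 939 genes that followed the stage change 5.86% and 9.37%. For the opposite directions they were 3.37% and 7.16% over all genes tested, and 1.81% and 5.86% over the 939. The shares among the 317 were higher than these in each direction, the opposite ones included. Picking genes that differ by number but have no stage call favours values outside the range of the other stages. The higher shares among the 317 are therefore at least in part built in and are not separate support. The early blastocyst calls are 13.1% of all genes tested, and 8.54% (235) of the 2753 genes whose stage change was within 0.25 of 0. The interaction test passed in 69 (21.8%) of the 317, in 17 (17.3%) of the 98 genes that went against the stage and in 389 (41.4%) of the 939 that followed it.

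Rps3a3 (chr13:108670603-108671397) and Rps3a2 (chr14:88123017-88123808), both annotated as processed pseudogenes and named as copies of the ribosomal protein gene Rps3a1, differed most. Rps3a3 stood at 150.2 and 113 CPM in number 1 and 0.726 and 0.612 CPM in number 2 (difference 4.98 ± 0.71, adjusted p = 0.000564). It was at 62.0 CPM in the number 2 morula control and at most 0.777 CPM in the other 3 morulae, and at most 0.96 CPM in late blastocysts. Rps3a2 stood at 145 and 83.6 CPM against 5.16 and 4.29 CPM (difference 3.78 ± 0.60, adjusted p = 0.00123), and was also high in that same morula library (51.4 CPM). Rps3a1 itself, with 1256 and 1306 CPM against 1828 and 1753 CPM, was lower in number 1 (difference -0.48, adjusted p = 0.00887, and 0.0953 without the number 2 control). The sources used here do not give how reads were shared out between these near-identical copies, so the values of all 3 are uncertain.

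A pair of clone-named genes on chromosome 4, named after their values were seen, had the same form. Gm13147 (chr4:147230284-147259338, a transcribed unprocessed pseudogene) stood at 61.0 and 55.3 CPM in number 1 and 1.89 and 3.29 CPM in number 2 (difference 3.33 ± 0.40, adjusted p = 0.000169). Gm13102 (chr4:144106474-144110101, protein coding) stood at 49.6 and 56.9 CPM against 5.66 and 11.9 CPM (difference 2.25 ± 0.28, adjusted p = 0.000197). At morula both differed between the numbers in the opposite direction, by -1.80 (adjusted p = 0.0212) and -2.62 (adjusted p = 4.98e-05). Pseudogenes made up 3.63% of the matched genes without a stage call, 2.0% of those that followed the stage and 2.42% of all.

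Downwards, a pair of neighbouring Ly6 genes had no stage call. Ly6e, a GPI-anchored protein of the Ly6 family (chr15:74955051-74959905), stood at 25.3 and 13.6 CPM in number 1 and 98.9 and 213 CPM in number 2 (difference -2.74 ± 0.52, adjusted p = 0.00333). Its neighbour Ly6a, known as Sca-1 (chr15:74994877-74998031), stood at 354 and 266 CPM against 769.7 and 1070.1 CPM (difference -1.55 ± 0.29, adjusted p = 0.00333). Neither gene's numbers overlapped, but Ly6e varied as widely within stages, from 21.8 to 217 CPM at morula, where its number difference had the opposite sign, 2.07 (adjusted p = 0.0377), and from 58.3 to 393 CPM at late blastocyst. Ly6a in number 2 lay above all morula and late blastocyst libraries (highest 679 CPM). Slc38a6, of an amino acid transporter family, stood at 71.5 and 137 CPM against 254 and 336 CPM (difference -1.53 ± 0.25, adjusted p = 0.00139), and here number 1 was the pair outside the range of the other stages, whose lowest library held 169 CPM. The same held for Rab3gap1, named after its values were seen (45.6 and 76.1 against 126 and 151 CPM, difference -1.18, adjusted p = 0.00395).

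The Rps3a, chromosome 4, Ly6, Slc38a6 and Rab3gap1 calls above held without any 1 early blastocyst library, Rps3a1 excepted. For Rps3a3 and Gm13147, which passed the filter only through number 1, this is a description and not support. Further genes without a stage call were Pinlyp (difference -1.40, adjusted p = 0.0079, and -1.32 at morula, adjusted p = 0.0244), BC049730 (-1.72, adjusted p = 0.0101) and Tpm3-rs7 (1.57, adjusted p = 0.0209). Tpm3-rs7, a copy of a tropomyosin gene whose reads may be shared with its parent, had numbers that were apart but wide (205 and 76.7 against 66.5 and 23.4 CPM, control then Tdgf1 siRNA), and without the number 2 Tdgf1 siRNA library its adjusted p was 0.234. Named after their values were seen, 3 genes of immune surface function were lower in number 1. H2-Q7, a class I histocompatibility gene that fell with stage, stood at 1.41 and 0.985 CPM against 8.93 and 10.3 CPM (difference -1.46, adjusted p = 0.00296), with number 1 under the filter. H2-K1, another class I gene, stood at 26.1 and 15.8 against 41.7 and 45.2 CPM (difference -0.97, adjusted p = 0.0332), and Ifitm2, an interferon-induced membrane protein, at 16.0 and 10.9 against 29.4 and 38.7 CPM (difference -1.15, adjusted p = 0.0023). Class I genes are near-identical to each other, so the H2 values are uncertain. Without 1 library H2-K1, Pinlyp and BC049730 lost the call (adjusted p up to 0.265, 0.0737 and 0.097), while H2-Q7 and Ifitm2 kept it.

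The 98 called genes that went against the stage change were led by Bex1, Tbx20, Reep1, Lyrm7 and Serpine2. Bex1 stood at 5.13 and 4.35 CPM in number 1 and 23.4 and 17.8 CPM in number 2, with 25.5 to 56.3 CPM at morula and 24.4 to 118 CPM at late blastocyst (difference -1.53 ± 0.36, adjusted p = 0.012). All 4 early blastocyst libraries thus lay below the range of both other stages, number 1 lowest. Tbx20, a T-box factor, stood at 95.4 and 139 CPM against 45.8 and 61.2 CPM (difference 1.07, adjusted p = 0.00997), and Reep1, a shaper of the endoplasmic reticulum, at 189 and 239.8 against 118 and 91.5 CPM (difference 1.01, adjusted p = 0.00139). Both fell from morula to late blastocyst, so in them it was number 2 that stood nearer the late blastocyst. Lyrm7, an assembly factor of respiratory complex III, was lower in number 1 by 1.0 (adjusted p = 0.0237) although it rose with stage. Reep1 kept the call without any 1 library, while the adjusted p rose to 0.105 for Bex1 without the number 2 control and to 0.116 (Tbx20), 0.162 (Lyrm7) and 0.181 (Serpine2) without the number 1 Tdgf1 siRNA library.

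**Figure D5:**
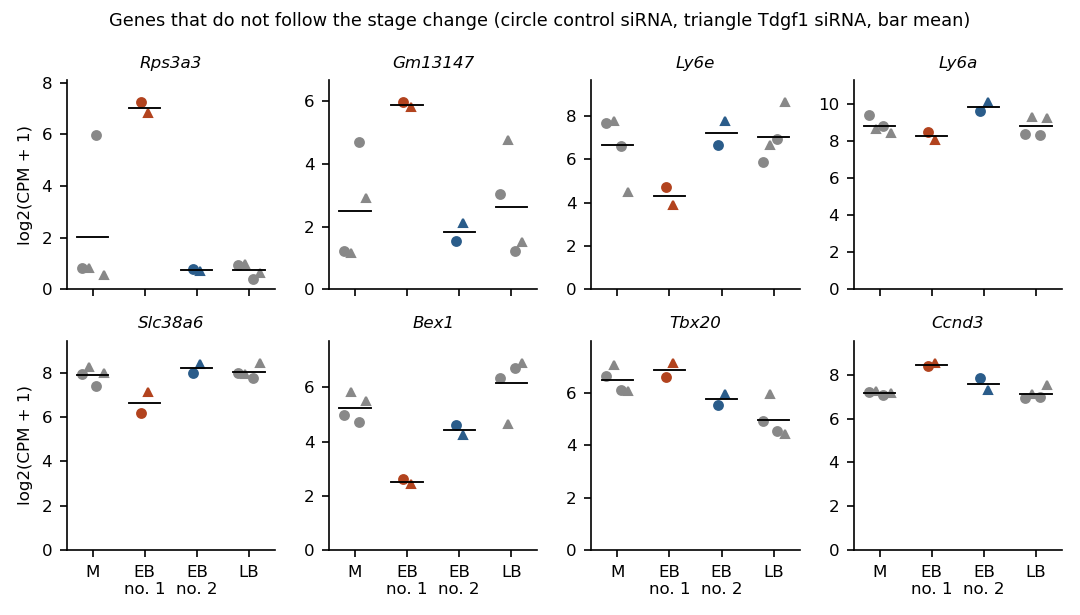
Levels, as log2(CPM + 1), of 8 called genes whose number difference did not have the direction of a called stage change, in each of the 12 libraries (M morula, EB early blastocyst, LB late blastocyst; bars are means). The numbers of the early blastocyst do not overlap in any panel, while morula and late blastocyst means are alike for Rps3a3 without its 1 high morula library, for Ly6a, Slc38a6 and Ccnd3.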

How the data were processed

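Expression was measured by RNA sequencing in 12 libraries of whole CD1 mouse embryos, whose cDNA and libraries were made with SMARTer ultra-low-input and NEBNext Ultra kits, per the labels' protocols. The submitters' processing notes name HISAT2 2.1.0, Cufflinks, HTSeq, edgeR and the mm10 genome. No source used here gives whether counting used strand. The values the authors deposited are headed RPKM, but every value was a whole multiple of 1 read's worth in its column, whatever the gene (100% within 0.01 reads), and every column summed to 279173.646. They were therefore read as CPM divided by 3.582, a scale without gene length, and levels of different genes were not compared. Reads per library were recovered from these steps.

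A gene was kept where its values in the 4 early blastocyst libraries averaged 1 or more in the deposited unit (3.582 CPM), which left 10371. Just outside that limit were Fnip2 (3.578 CPM) and Adamtsl5 (3.58 CPM), and just inside Klhl30 (3.584 CPM) and Fgfr3 (3.585 CPM). Limma 3.58.1 (R 4.3.3; lmFit, eBayes with trend) was run on log2(value + 1), a pseudocount of 3.582 CPM, over all 12 libraries with 6 stage-and-number means (6 residual and 11.6 prior degrees of freedom). The stage change was fitted on the morula and late blastocyst libraries only. Adjusted p-values are Benjamini-Hochberg over all 10371 genes, with a threshold of 0.05. Alternatives were TMM scaling, quantile normalization, a pseudocount of 0.1, other filters, an siRNA block, the early blastocyst libraries alone, edgeR 4.0.16 and DESeq2 1.42.0 on the recovered reads, and leaving out each library. Of the tested names, 9874 (95.2%) matched 1 gene of GENCODE M21 (GRCm38, equal to mm10 in coordinates).

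The genes named were, among those past the threshold, the 10 largest differences each way, the 5 largest against the stage change and the 5 largest with a stage change within 0.25 of 0, clone names left out, and up to 4 members with the largest difference from each of 26 gene lists. Gm13147, Gm13102, Alppl2, H2-Q7, H2-K1, Ifitm2, Nanog, Pou5f1, Gata6, Rps3a1, Mapt, Me1, Rab3gap1 and further called list members were added after values were seen. The comparison, the genes and the lists were chosen with earlier results of these data known. The 2 libraries of a number were not 1 library deposited again: counts per gene differed with a chi-square of 9.12 to 16.4 per gene, where sampling noise alone gives about 1. Some called members of the gene lists are counted but not reported here by name.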

Additional observations from a re-analysis of the deposited data

Results flagged for a closer look

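The number difference at early blastocyst departed from the mean number difference at morula and late blastocyst for 567 genes (5.47% of 10371; a contrast of the same limma fit, Benjamini-Hochberg adjusted p under 0.05). For the named genes among them, the size of that departure is given below on the log2(value + 1) scale, positive where number 1 was relatively higher at early blastocyst. The part of the stage, of the collection of embryos and of single libraries in these departures was not tested.

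Among the leading genes without a stage call the departures were 5.84 for Rps3a3, 4.98 for Rps3a2, 3.33 for Gm13147 and 3.36 for Gm13102, in all 4 of which the number 2 morulae had the higher mean. They were -3.04 for Ly6e, -1.79 for Ly6a, -1.67 for Slc38a6, -1.37 for Rab3gap1 and -1.19 for Ifitm2. Rps3a1, the parent gene of the Rps3a copies, departed by -0.54.

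Among the leading genes that rise with stage the values were 2.81 for BC053393, 2.40 for Tmsb4x, 2.14 for Adh1, 2.07 for Ndrg1, 2.02 for Slc22a5, 1.56 for Pdcd4, 1.51 for Tspan8 and 1.21 for Capn2. Tpm1 departed by 0.66, Mapt by 1.13 and Me1 by 1.15. Among genes that fall they were -2.61 for Nppb, -1.71 for Obox6, -1.51 for Alppl2, -1.35 for H2-Q7 and -1.17 for Sp110.

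Lineage genes departed as well. Gata2 (1.42), Cdx2 (1.05), Id2 (0.85) and Gata3 (0.74) were relatively higher in number 1 and Hand1 (-1.32) lower, and the epithelial genes Slc9a3r1 (0.99), Krt8 (0.97) and Krt18 (0.92) were higher. Of the pluripotency genes, Sox15 (-1.47), Dppa3 (-0.92), Gdf3 (-0.85) and Dppa4 (-0.68) departed downwards. Of the signalling genes, Tead2 (1.29), Cfc1 (1.08) and Amot (0.88) departed upwards, and Tead2 and Amot did so without an early blastocyst call of their own.

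Cell cycle genes departed by -0.79 (Ccnb1), -0.78 (Ccne1), -0.77 (Tyms), -0.69 (Cdk1) and 0.92 (Ccnd3). Stress genes departed by -1.40 (Gadd45b), -1.10 (Oasl2), -0.90 (Dnajb9), -0.71 (Psat1), 0.58 (Hsph1) and 0.53 (Hspe1). Metabolic genes departed by 1.28 (Srebf2), 1.21 (Acly), 1.2 (Mvk), 1.13 (Hk2), 1.03 (Scd1) and 0.73 (Pkm), lysosomal genes by 1.28 (Gm2a), 0.99 (Psap) and -0.95 (Ctsz), and methylation genes by 1.01 (Dnmt3b) and 0.64 (Tet2). Srebf2, Mvk, Psat1 and Oasl2 had no early blastocyst call of their own.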

How the results depend on the processing

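Without a filter on low values limma called 175 genes at early blastocyst, 74 at morula, 202 at late blastocyst and 0 in the contrast of the stages' number differences (3346 at an unadjusted p under 0.05), and 88% of the early blastocyst calls then had the sign of the stage change. That share was 85.76% with TMM scaling and 86.41% with edgeR. DESeq2 called 527 genes at morula and 75 at late blastocyst. Of the 1354 early blastocyst calls edgeR shared 830 (61.3%) of its 1111 and DESeq2 947 (69.9%) of its 1428. TMM, edgeR and DESeq2 called more genes lower than higher in number 1, with 460 and 734, 445 and 666, and 563 and 865. The position difference between the numbers was 0.143 over axis genes that fall, 0.239 over axis genes that rise and 0.184 to 0.238 in its other alternatives. Leaving out 1 library gave 331 to 1003 calls at early blastocyst, 111 to 173 at morula, 18 to 52 at late blastocyst and 136 (without the number 2 early blastocyst control) to 712 (without the number 1 late blastocyst control) in the contrast. Without 1 early blastocyst library, 76.27% to 88.66% of the early blastocyst calls had the sign of the stage change, whether or not that change was called. Under TMM scaling 125 of the 156 named genes kept direction and call status, 20 lost the call, 7 gained it and 4 changed sign. Genes near 0 that changed sign were Padi6 (-0.17 with quantile normalization, -0.09 with TMM scaling, -0.11 with edgeR and -0.11 with DESeq2), Stat2 (-0.1, -0.03, -0.05 and -0.06), Kdm6a (-0.05, -0.03, -0.03 and -0.04) and Eif2s3y (-0.13, -0.1, -0.12 and -0.12). On leaving out 1 library Padi6 ranged from -0.2 to 0.23, Arg2 from -0.5 to 0.03, Stat2 from -0.04 to 0.16, Irf9 from -0.25 to 0.21, Eif2s3y from -0.24 to 0.3 and Gata6 from -0.28 to 0.04. The cause was not tested. The number is itself the early blastocyst comparison and cannot be a block there. With the number as a replicate block the stage change called 6756 genes, beside 6686 without it. Across genes, early blastocyst number differences correlated with those at morula with r = 0.058 and at late blastocyst with r = 0.046, and those at late blastocyst with those at morula with r = -0.105. Whether a number stands for the same collection across stages was not tested, and the labels do not say. The number was not used to pair libraries of different stages in the main fits.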

Other observations

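Mapt, which encodes the microtubule protein tau, stood at 88.7 and 68.3 CPM in number 1 and at 34.3 and 22.1 CPM in number 2, with a late blastocyst range of 31.8 to 34.7 CPM (difference 1.38 ± 0.21, adjusted p = 0.00101, limma). Both number 1 libraries lay above every late blastocyst library, and the number 2 libraries lay closer to the late blastocyst level. It was chosen after its values were seen.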
